A study of Gallus gallus with 5 samples.

Results

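The genes of the cytosolic ribosomal proteins were examined in the livers of 5 broiler breeder hens. They were the rows of a count table whose symbol begins with RPL or RPS and a number, with RPLP or with RPSA, the RPS6K kinases left out, and which reached at least 10 estimated counts in 2 or more hens. Of 53 rows with such symbols 52 qualified, among 4274 of the table's 6286 rows that met the same count minimum. They comprised 19 small subunit symbols and 33 large subunit symbols. The row left out was RPL3L, with 6 and 1 counts in FF hens and 7, 6 and 9 in RF hens, and the lowest row kept was RPS19BP1, with 106 and 45 counts in FF hens and 77, 104 and 65 in RF hens. The symbol rule also admitted 2 genes that do not encode a core ribosomal protein, namely RPS19BP1, which binds RPS19, and RPL7L1, a relative of RPL7 that acts in large subunit assembly. RPLP2 and other ribosomal protein genes with no row here were not analysed.

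FF and RF hens were compared, to ask how feed allowance bears on expression in the liver. FF hens had free access to feed (2 hens, FF1 and FF2) and RF hens received a restricted allowance (3 hens, RF1, RF2 and RF3), and the diets began at 38 weeks of age. All were broiler breeders, the parents of meat chickens. Each library was a separate hen, and the labels tell of a further FF hen that was not analysed here.

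Ribosomal proteins make up the small subunit, which reads the messenger RNA, and the large subunit, which joins the amino acids, together with the ribosomal RNAs. The liver of a laying hen makes large amounts of secreted protein, yolk precursors among them, and ribosomes are its means of doing so. In vertebrates the messenger RNAs of ribosomal proteins carry a 5′ terminal oligopyrimidine (TOP) tract, through which TOR kinase signalling adjusts their translation to nutrient supply, a control that RNA levels alone do not show.

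Libraries held 2666609 (FF2) to 4622392 (FF1) estimated counts, and FF2 stood apart from the other hens on the first principal component of all genes tested, at 44.5 against -28.0 to -1.75. Member counts ran from 45 to 12502 with a median of 2395, for which counting error alone is 2.04% of the value, and 14.9% at the lowest. Values are counts-per-million (CPM) of a library size scaled by the trimmed mean of M values (TMM). They are not divided by transcript length, so they compare hens within a gene and not one gene with another. Of 15 hepatocyte markers 12 were in the table and 11 tested, and they summed to 210948 and 206220 CPM in FF hens and to 264890, 189902 and 219641 CPM in RF hens, while ALB was listed at 0 in every hen. Because these are whole pieces of liver, fewer cells of a type and less RNA per cell cannot be told apart.

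Ribosomal protein genes lay mostly slightly lower in FF hens than in RF hens, and none passed the test. Of the 52, 38 had a log2 fold change (FF over RF) below 0 and 14 above 0, with a median of -0.15 and a range of -1.06 to 0.59. The median was -0.066 without RF2, -0.23 without FF2 or RF1, and -0.057 with libraries scaled by totals alone, where that of all genes moved to 0.11. Members above 0 numbered 23 without RF2, 22 without FF1 and 19 with library totals alone. They numbered 12 without FF2 or RF1 and 13 without RF3. All members share the same 5 libraries. Over all 4309 genes tested, 50.6% lay above 0 and the median was 0.0076. By edgeR's quasi-likelihood test with Benjamini-Hochberg adjustment, 0 members had an adjusted p under 0.05, where 0.0464% of all genes tested did, and the lowest adjusted p of a member was 0.484. DESeq2 also called 0 members, against 1.83% of all genes with an adjusted p. At an unadjusted p under 0.05 in edgeR, 0 members were higher and 3 were lower in FF hens, against 4.41% and 4.94% of all genes tested (9.35% in either direction). For 43 of the 52 the fold change was within 0.5 of 0 on the log2 scale.

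**Figure D1:**
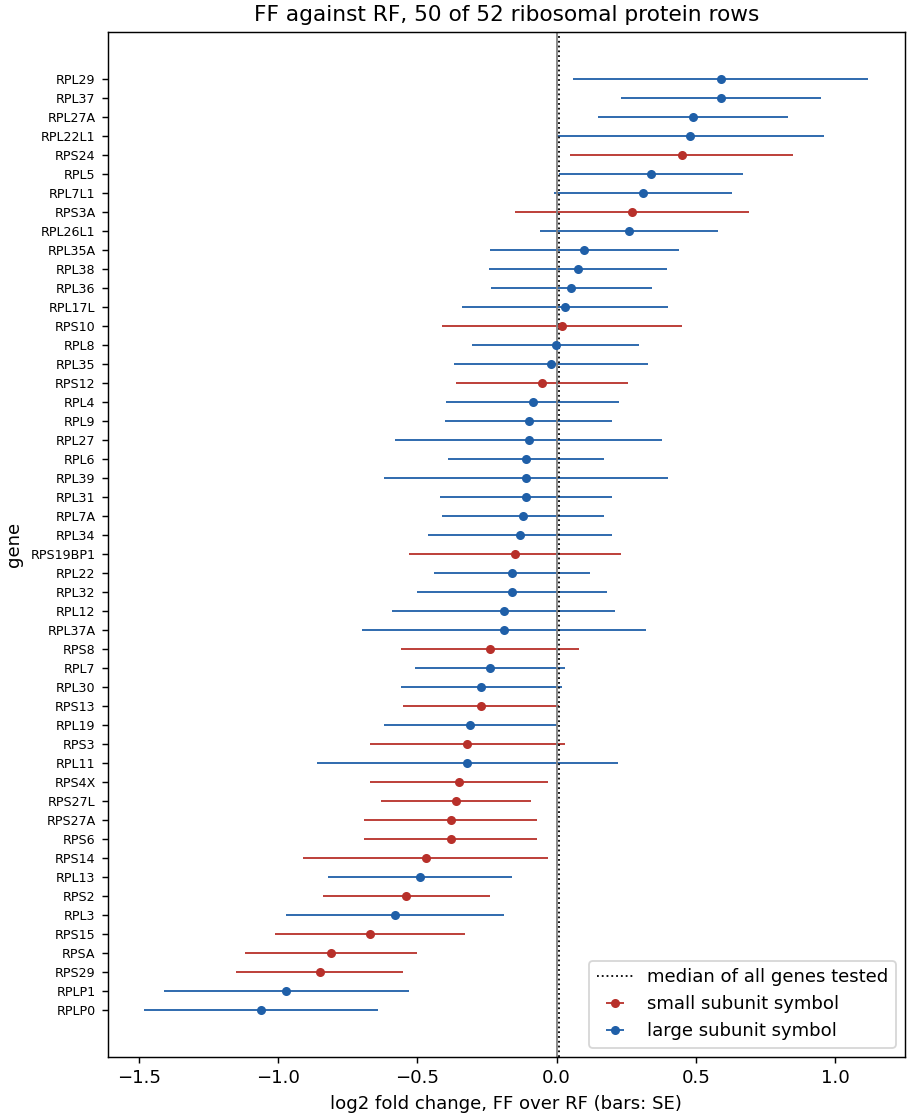
Log2 fold change of FF over RF with its standard error for 50 of the 52 rows, small subunit symbols in red and large subunit symbols in blue, ordered by fold change. Most points sit left of 0, small subunit symbols more often than large, from RPLP0 at -1.06 to RPL29 at 0.59.

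The groups did not overlap in 15 members, and in all of these both FF hens lay below the 3 RF hens (8 members when libraries were scaled by their totals alone). Those 15 are 28.8% of the members, against 13.9% of all genes tested with FF below. In 0 members did both FF hens lie above every RF hen, against 13.1% of all genes tested, and in either direction 27.0% of all genes had no overlap. Of the 15, 9 were small subunit symbols (RPS2, RPS6, RPS13, RPS15, RPS27A, RPS27L, RPS29 and RPSA among them) and 6 were large subunit symbols (RPL6, RPL7, RPL13, RPL19, RPLP0 and RPLP1). Some were near ties, as in RPS13, where FF2 stood at 275.6 CPM and RF3 at 276.2 CPM. With library totals alone 9.42% of all genes tested lay below and 19.1% above, against 15.4% of the members below.

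The members with the lowest fold changes were the 2 stalk proteins and 2 proteins of the small subunit. RPLP0 anchors the stalk of the large subunit, the arm that draws in elongation factors. It stood at 1841 and 788 CPM in FF1 and FF2, against 2757, 2844 and 2625 CPM in RF1, RF2 and RF3. The 3 RF hens were close to each other, FF1 was lower and FF2 far lower, with no overlap between groups. The means were 1315 ± 744 CPM in FF (SD, n = 2) and 2742 ± 110.2 CPM in RF (SD, n = 3), which gives -1.06 ± 0.42 on the log2 scale (SE; edgeR quasi-likelihood, adjusted p = 0.512). With FF2 left out it was -0.56, and with FF1 left out -1.80.

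RPLP1, an acidic protein bound to RPLP0 in the stalk, had the same order of groups. It stood at 1221 and 514 CPM in FF1 and FF2, against 1641, 2103 and 1363 CPM in RF1, RF2 and RF3. Again both FF hens lay below all RF hens, and FF2 was much the lowest. The log2 fold change was -0.97 ± 0.44 (SE; edgeR quasi-likelihood, adjusted p = 0.555), at -0.47 without FF2 and -1.73 without FF1.

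In RPS29 and RPSA the FF hens were nearly alike, unlike in the stalk genes. RPS29, a small zinc-binding protein of the small subunit's head, stood at 491 and 469 CPM in FF1 and FF2, against 953, 926 and 724 CPM in RF1, RF2 and RF3. RPSA, which sits on the small subunit and is also known as the laminin receptor, stood at 1474 and 1449 CPM in FF1 and FF2, against 2488, 2264 and 2921 CPM in RF1, RF2 and RF3. Both genes had the FF hens together below every RF hen. RPS29 was at -0.85 ± 0.30 on the log2 scale (SE; edgeR quasi-likelihood, adjusted p = 0.484) and lay between -0.97 and -0.75 over all alternatives run. For RPSA it was -0.81 ± 0.31 (SE; edgeR quasi-likelihood, adjusted p = 0.504), between -0.89 and -0.70 over those alternatives. DESeq2 gave its lowest adjusted p among members to these genes, 0.141 for RPS29 and 0.166 for RPSA.

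RPS6, the small subunit protein that S6 kinases phosphorylate, stood at 958 and 713 CPM in FF1 and FF2, against 992, 1233 and 1038 CPM in RF1, RF2 and RF3. RPS27A, made as a fusion of ubiquitin with a small subunit protein, stood at 501 and 457 CPM in FF1 and FF2, against 503, 777 and 596 CPM in RF1, RF2 and RF3. In both, FF1 lay only just under the lowest RF hen, RF1. With library totals alone FF1 lay above RF1 in both, so the groups then overlapped. Their log2 fold changes were -0.38 ± 0.31 each (SE; edgeR quasi-likelihood, adjusted p = 0.707 for each). That of RPS6 was -0.17 without FF2 and -0.61 without FF1, and that of RPS27A was -0.20 without RF2.

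The members with the highest fold changes were all large subunit genes with overlapping groups. RPL29, a small basic protein on the surface of the large subunit, stood at 129 and 524 CPM in FF1 and FF2, against 253, 197 and 197 CPM in RF1, RF2 and RF3. FF1 was the lowest hen and FF2 the highest, with the RF hens between them. Its fold change, 0.59 ± 0.53 on the log2 scale (SE; edgeR quasi-likelihood, adjusted p = 0.732), was -0.73 without FF2. RPL37 stood at 280 and 392 CPM in FF1 and FF2, against 177, 313 and 180 CPM in RF1, RF2 and RF3, so RF2 lay between the FF hens. Its log2 fold change was 0.59 ± 0.36 (SE; edgeR quasi-likelihood, adjusted p = 0.617), at 0.34 without FF2 and 0.91 without RF2.

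RPL27A and RPL22L1 had few counts and the same hen on top. RPL27A stood at 27.5 and 56.4 CPM in FF1 and FF2, against 27.5, 30.3 and 30.8 CPM in RF1, RF2 and RF3. RPL22L1, a paralogue of RPL22, stood at 17.6 and 47.3 CPM in FF1 and FF2, against 17.9, 18.2 and 32.9 CPM in RF1, RF2 and RF3. FF2 alone stood apart in RPL27A, while in RPL22L1 RF3 also lay above the other hens. Without FF2 the log2 fold changes of 0.49 for RPL27A and 0.48 for RPL22L1 were -0.091 and -0.38. Without RF3 that of RPL22L1 was 0.83. Whether the row of RPL27A holds all reads of its gene was not settled, as neither the annotation nor the handling of multiply mapped reads is known.

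RPL22 itself lay at 373 and 300.0 CPM in FF1 and FF2, against 361, 419 and 347 CPM in RF1, RF2 and RF3. FF2 was thus the lowest hen for RPL22 and the highest for RPL22L1. Further rows with paralogue-type symbols included RPL26L1 (log2 fold change 0.26 ± 0.32, SE), RPL7L1 (0.31 ± 0.32), RPL17L (0.032 ± 0.37) and RPS27L (-0.36 ± 0.27), with a lowest adjusted p of 0.682 in edgeR's quasi-likelihood test. The RefSeq table of the GRCg7b assembly gives RPL17L as a synonym of RPL17, and its names for 3 further rows were RPL39L for RPL39, RPS4Y1 for RPS4X and RPSAP58 for RPSA. RPL22L1 and RPL7L1 stood beside rows of RPL22 and RPL7, and reads shared between such near copies may have been divided between rows. For RPL17L, RPL26L1 and RPS27L the table held no row named RPL17, RPL26 or RPS27. How multiply mapped reads were treated is not known, so all these values are uncertain.

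Small subunit genes lay lower than large subunit genes in FF against RF, and in the medians over genes that gap rested on FF2. Of the 19 small subunit symbols 16 lay below 0 (median -0.36 on the log2 scale), and of the 33 large subunit symbols 22 lay below 0, with a median of -0.11. Without FF2 the medians were -0.25 for the small and -0.23 for the large subunit, and without FF1 they were -0.46 and 0.045. Without RF2 they were -0.20 and 0.085. Counted by sign, the gap stayed without FF2, where 2 of the 19 small and 10 of the 33 large subunit symbols lay above 0. Leaving out RPS19BP1 and RPL7L1 gave 37 of 50 members below 0 and a median of -0.16.

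Relative to the mean of the 5 hens, the median small subunit gene lay at -0.15 in FF1 and -0.30 in FF2, against 0.029 in RF1, 0.32 in RF2 and 0.10 in RF3 (log2). The median large subunit gene lay at -0.14 in FF1 and 0.078 in FF2, against -0.088 in RF1, 0.22 in RF2 and -0.044 in RF3. With TMM scaling, both subunits were low to the same extent in FF1. In RF2 both were high, and in FF2 the small subunit was low while the large one was not. As a share of library totals, the summed large subunit of FF1 was not low. It was 2.28%, against 2.23% in FF2 and 2.21%, 2.94% and 2.23% in RF1, RF2 and RF3. The small subunit sum of FF1 was the lowest of the 5 hens, at 1.32%.

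Summed over genes, ribosomal proteins took a narrow share of the libraries. It was 3.60% of counts in FF1 (95% Wilson interval 3.58% to 3.62%, counting error only) and 3.66% in FF2 (3.64% to 3.68%). In RF hens it was 3.64% in RF1 (3.62% to 3.66%), 4.71% in RF2 (4.68% to 4.73%) and 3.81% in RF3 (3.80% to 3.83%). RF2 stood above the other 4 hens, which lay close together, and the groups overlapped. In TMM-scaled CPM the sums were 34120 and 35502 in FF hens, against 38483, 46421 and 39856 in RF hens, which did not overlap. The log2 ratio of mean sums was -0.26 on that scale (-0.17 without RF2) and -0.16 when libraries were scaled by totals alone, so whether the groups overlapped depended on the scaling.

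The ratio of small to large subunit counts was 0.577 in FF1 and 0.646 in FF2, against 0.644 in RF1, 0.598 in RF2 and 0.709 in RF3. Its mean was 0.611 ± 0.0482 in FF (SD, n = 2) and 0.650 ± 0.0557 in RF (SD, n = 3), a difference smaller than the spread within either group. The log2 difference, FF minus RF, was -0.088, at -0.17 without FF2 and -0.0072 without FF1, so the summed counts placed the lower small subunit share in FF1 whereas the medians over genes placed it in FF2. This sum weighs the genes with most counts, which were RPLP0, RPSA, RPL19, RPL4 and RPS3A and held 22.8% (FF1) to 28.4% (RF3) of all member counts.

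**Figure D2:**
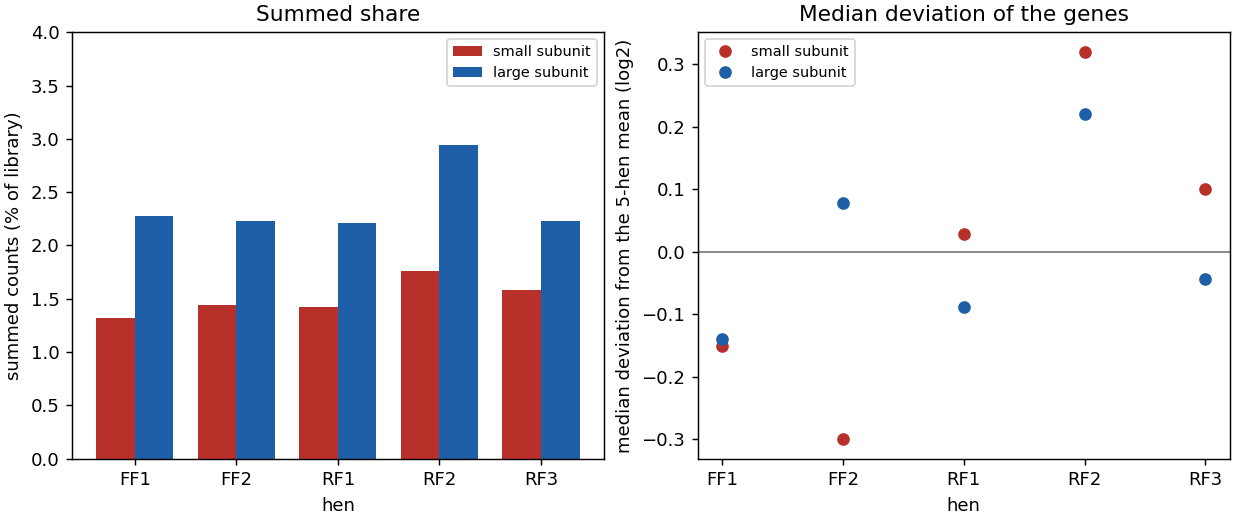
Left, summed counts of small (red) and large (blue) subunit genes as a percentage of each library, by hen. Right, the median deviation of each subunit's genes from the mean of the 5 hens (log2 CPM). RF2 is highest in both panels, and FF2 is the hen whose small and large subunit points are farthest apart, at -0.30 and 0.078.

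Ranking the hens within each gene put RF2 most often highest, and FF1 and FF2 most often lowest. RF2 was the highest of the 5 hens in 31 of 52 members (59.6%) and the lowest in 0, whereas over all genes tested it was highest in 21.9% and lowest in 22.8%. FF1 was the highest in 1 member, RPL7L1, and the lowest in 21 (40.4%), whereas over all genes it was highest in 17.0% and lowest in 17.2%. FF2 was the highest in 16 (30.8%) and the lowest in 21 (40.4%), against 31.0% and 30.8% over all genes. Scaled by library totals alone, FF1 was lowest in 10 members, fewer than RF1 (13) and FF2 (20), and RF2 was still highest in 31.

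**Figure D3:**
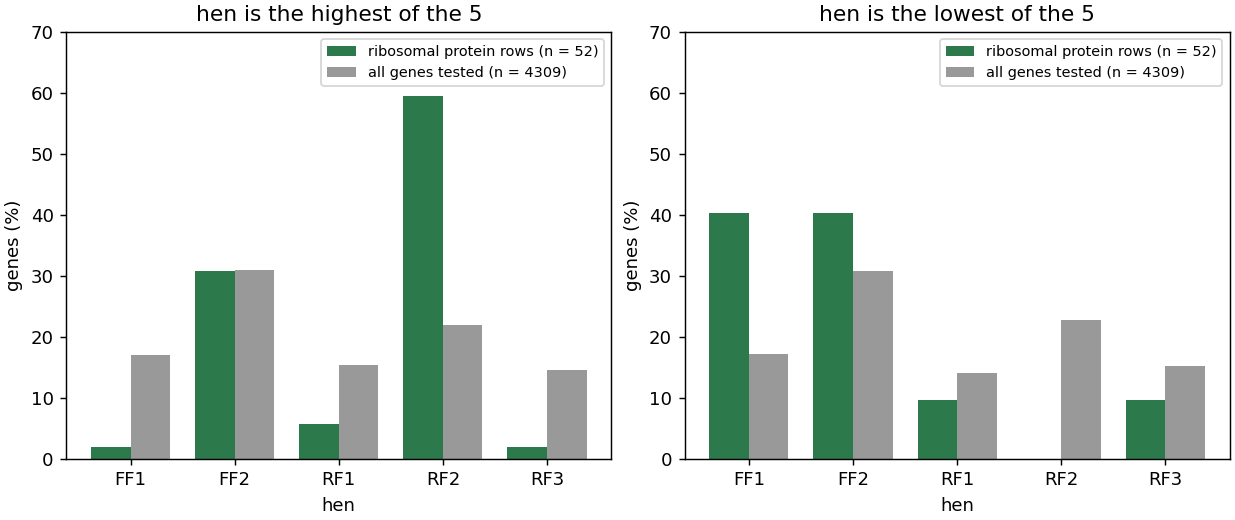
Share of genes in which each hen had the highest (left) or the lowest (right) CPM of the 5, for the 52 ribosomal protein rows (green) and all 4309 genes tested (grey). RF2 is highest in 59.6% of the ribosomal protein rows and lowest in none, and FF1 is highest in 1.92%.

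The marker sums of other cell types also differed between hens. Of 15 leucocyte and Kupffer cell markers 13 were in the table and tested. They summed to 3887 and 2260.1 CPM in FF1 and FF2, against 3155, 5535 and 3928 CPM in RF1, RF2 and RF3. RF2 was the highest hen here and for erythrocyte and bile duct markers, but not for hepatocyte, stellate cell or endothelial markers. FF2 was the lowest here, while FF1, lowest in summed ribosomal protein CPM, lay above RF1. Of 15 erythrocyte markers 8 were in the table and 5 tested, with SLC4A1 at 0 in every hen, and they summed to 3727 and 3657 CPM in FF1 and FF2, against 2786, 4263 and 1117 CPM in RF1, RF2 and RF3. The 7 stellate cell and fibroblast markers in the table summed to 1332 and 553 CPM in FF hens and to 544 to 767 CPM in RF hens, with none at 0 in every hen. The 5 endothelial markers in the table summed to 177 and 225 CPM in FF hens and to 290.0 to 354 CPM in RF hens, also with none at 0 throughout. The 6 bile duct markers in the table summed to 241 and 129 CPM in FF hens and to 239 to 278 CPM in RF hens, with KRT7 at 0. Such sums weigh the markers with most counts. By sign, tested markers with a log2 fold change above 0 were 6 of 6 for stellate cells, 5 of 5 for erythrocytes and 3 of 4 for bile duct. They were 6 of 13 for leucocytes, 4 of 11 for hepatocytes and 0 of 5 for endothelial cells, against 50.6% of all genes tested. The part of these cells in the ribosomal protein values was not tested.

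For most members, as for most genes tested, the FF hens differed from each other more than the groups did. That comparison sets single hens against group means. The distance between FF1 and FF2 exceeded the size of the fitted log2 fold change in 39 of 52 members (75.0%), against 64.6% of all genes tested. FF2 was more than 2-fold above FF1 in 13.5% of the members (7), against 8.91% of all genes tested, and more than 2-fold below it in 11.5% (6), against 12.3%. Over members the log2 ratio of FF2 to FF1 had a median of 0.015 and an SD of 0.82, against 0.00029 and 0.89 over all genes.

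The 7 that were more than 2-fold higher in FF2 than in FF1 were RPL29, RPL39, RPL22L1, RPS10, RPS3A, RPS24 and RPL27A. Some of these were chosen for mention after their values were seen. RPL39, a very small protein lining the exit tunnel, stood at 230.1 and 790.1 CPM in FF1 and FF2, against 613, 421 and 613 CPM in RF1, RF2 and RF3. RPS10, at the messenger RNA entry side of the small subunit, stood at 494 and 1302 CPM in FF1 and FF2, against 925, 759 and 972 CPM in RF1, RF2 and RF3. In both genes FF1 lay below and FF2 above every RF hen, so the group means nearly met, with log2 fold changes of -0.11 ± 0.51 for RPL39 and 0.020 ± 0.43 for RPS10 (SE). RPS3A, which stood at 1184 and 2848 CPM in FF1 and FF2, against 1522, 1545 and 1939 CPM in RF1, RF2 and RF3, had that order too, with a log2 fold change of 0.27 ± 0.42 (SE) that was -0.48 without FF2. RPS24 stood at 505 and 1121 CPM in FF1 and FF2, against 524, 521 and 743 CPM in RF1, RF2 and RF3.

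The 6 that were more than 2-fold lower in FF2 than in FF1 were RPLP0, RPLP1, RPL11, RPL37A, RPL27 and RPS14. Those beyond RPLP0, RPLP1 and RPL11 were likewise chosen after their values were seen. RPL11, which joins the ribosome in a particle with RPL5 and the 5S ribosomal RNA, stood at 352 and 126 CPM in FF1 and FF2, against 192, 466 and 242 CPM in RF1, RF2 and RF3. FF2 was lowest and RF2 highest, and the log2 fold change of -0.32 ± 0.54 (SE) was 0.25 without FF2 and 0.14 without RF2. Its partner RPL5 stood at 664 and 1097 CPM in FF1 and FF2, against 616, 708 and 760 CPM in RF1, RF2 and RF3, so FF2 was the highest hen for RPL5 and the lowest for RPL11. RPL37A stood at 206 and 75.6 CPM in FF1 and FF2, against 116, 247 and 123 CPM in RF1, RF2 and RF3. RPL27 stood at 2002 and 783 CPM in FF1 and FF2, against 1199, 2068 and 1199 CPM in RF1, RF2 and RF3. RPS14, a protein of the small subunit's platform, stood at 795 and 332 CPM in FF1 and FF2, against 621, 1018 and 699 CPM in RF1, RF2 and RF3. In RPL37A, RPL27 and RPS14, as in RPL11, FF1 and RF2 were the 2 highest hens and FF2 the lowest.

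**Figure D4:**
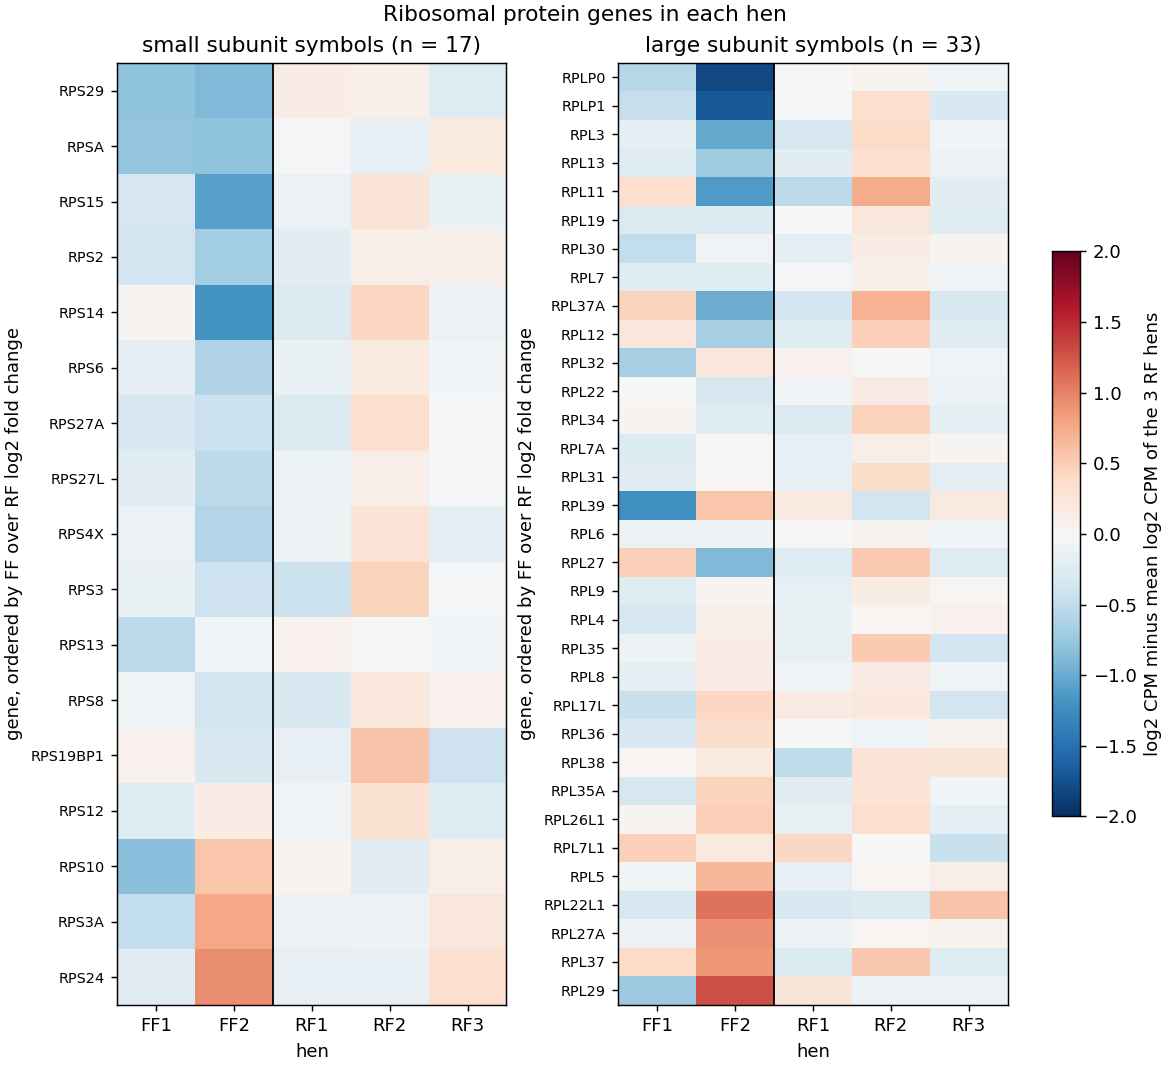
Log2 CPM of each ribosomal protein gene in each hen minus the mean of the 3 RF hens, for 50 of the 52 rows, small subunit symbols left and large right, ordered from the lowest log2 fold change at the top, FF hens left of the line. The FF2 column runs from dark blue (RPLP0, -1.80) to red (RPL29, 1.29), and the RF2 column is mostly pale red.

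Spread over hens was slightly above that of other genes in the members' CPM range in 1 measure and slightly below it in the others. That range is wide, and genes were not matched to members by level within it. The biological coefficient of variation fitted by edgeR leaves out counting error and the difference between groups, and it is drawn towards a trend over genes. It had a median of 29.4% over members (25.5% to 42.5%), 29.2% over small and 29.7% over large subunit symbols. Over all genes tested its median was 29.1%, and over the 2905 other genes within the members' range of mean log2 CPM it was 27.4%, a value that 44 of the 52 members (84.6%) exceeded. The SD of log2 CPM over the 5 hens includes the difference between groups and is not drawn towards a trend. Its median was 0.34 over members, against 0.37 over those 2905 genes and 0.40 over all genes tested. Within RF hens the median SD was 0.25, against 0.26 and 0.29. The distance between FF1 and FF2 had a median of 0.45 on the log2 scale, against 0.48 and 0.52.

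Within that average the members ranged widely. The most even was RPL6, at 1313 and 1340 CPM in FF1 and FF2, against 1437, 1488 and 1372 CPM in RF1, RF2 and RF3, an SD of 0.074 on the log2 scale over the 5 hens. RPL7 (SD 0.15), RPL8 (0.16) and RPL7A (0.16), all of the large subunit, followed. RPL8 lay at a log2 fold change of -0.0033 ± 0.30 (SE), whose sign turned with upper quartile scaling and with library totals alone. The widest were RPLP0 (SD 0.78), RPLP1 (0.77), RPL29 (0.75) and RPL11 (0.73), also all of the large subunit, in each of which FF2 was the highest or the lowest hen. Within RF hens alone the SD of RPLP0 was 0.058, against the members' median of 0.25.

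RPL19 and RPL4 are large subunit proteins whose rows took many counts. RPL19 stood at 1783 and 1786 CPM in FF1 and FF2, against 2203, 2555 and 1857 CPM in RF1, RF2 and RF3. With this TMM scaling the FF hens were nearly equal and below all RF hens. With library totals alone both FF hens lay above RF3. Its log2 fold change was -0.31 ± 0.31 (SE; edgeR quasi-likelihood, adjusted p = 0.762). RPL4 stood at 1482 and 2026 CPM in FF1 and FF2, against 1703, 1917 and 1964 CPM in RF1, RF2 and RF3, with FF1 lowest and FF2 highest. The row of RPS19BP1 stood at 21.7 and 16.4 CPM in FF1 and FF2, against 18.1, 30.5 and 15.2 CPM in RF1, RF2 and RF3.

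**Figure D5:**
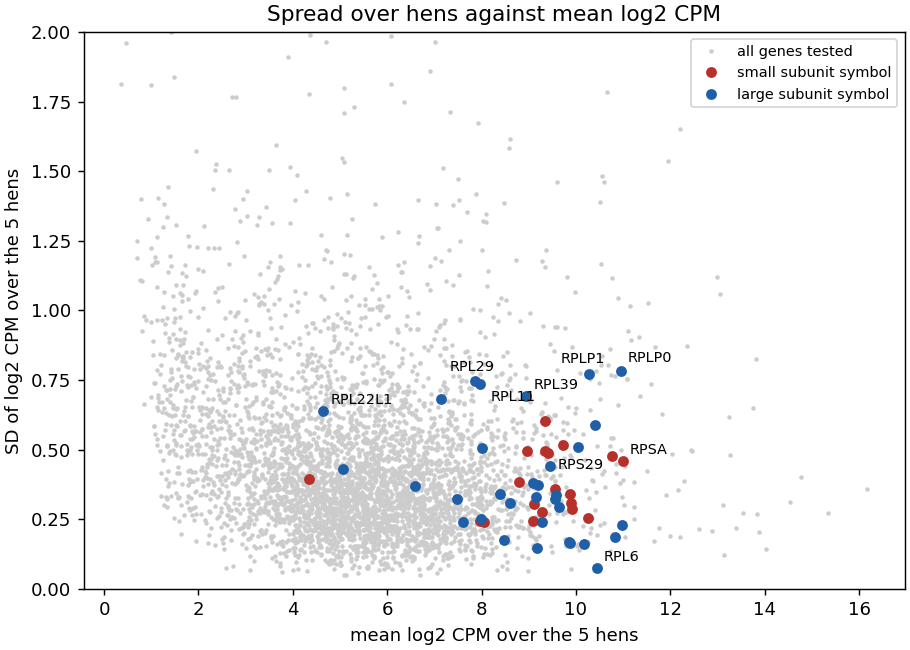
SD of log2 CPM over the 5 hens against mean log2 CPM, for all genes tested (grey, 22 genes above an SD of 2 lie off the axis) and the small (red) and large (blue) subunit symbols. The SD of ribosomal protein genes runs from RPL6 at 0.074 to RPLP0 at 0.78. CPM are not divided by length, so the horizontal axis does not rank genes by expression.

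In 4 lists of other genes of ribosome production and translation 0 genes had an adjusted p under 0.05 between FF and RF in edgeR's quasi-likelihood test, and DESeq2 called 0. Of 40 tested ribosome biogenesis factors 16 lay above 0 (median -0.067 on the log2 scale). At an unadjusted p under 0.05 in edgeR 2 were higher and 3 were lower (4.41% and 4.94% of all genes tested). DKC1, which acts in pseudouridine formation in ribosomal RNA, stood at 122 and 98.9 CPM in FF1 and FF2, against 219, 293 and 158 CPM in RF1, RF2 and RF3 (log2 fold change -1.02 ± 0.34, SE; edgeR adjusted p = 0.457). PNO1, an assembly factor of the small subunit, lay at -0.76 ± 0.29 (SE; edgeR adjusted p = 0.509). Both had FF below every RF hen, as did 6 of the 40 in all, while 5 had FF above every RF hen (13.9% and 13.1% of all genes tested).

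Of 13 tested elongation factors and further genes with TOP messages 3 lay above 0, with a median of -0.13. At an unadjusted p under 0.05 in edgeR 0 were higher and 1 was lower (4.41% and 4.94% of all genes tested). GNB2L1, also known as RACK1, is a scaffold bound to the head of the small subunit. It stood at 1284 and 1111 CPM in FF1 and FF2, against 1857, 1980.0 and 1787 CPM in RF1, RF2 and RF3 (log2 fold change -0.65 ± 0.30, SE; edgeR adjusted p = 0.555). Both FF hens were lower than every RF hen, as in RPS29 and RPSA. That order held for 4 of the 13, and 0 had FF above every RF hen (13.9% and 13.1% of all genes tested). The row named EEF1A1, the factor that delivers aminoacyl-tRNA, stood at 30.8 and 14.9 CPM in FF1 and FF2, against 41.0, 47.0 and 43.0 CPM in RF1, RF2 and RF3 (-0.92 ± 0.35, SE; edgeR adjusted p = 0.509; -0.49 without FF2 and -1.55 without FF1). As with RPL27A, whether this row holds all reads of its gene was not settled.

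Of 7 tested genes of the TOR pathway and S6 kinases 4 lay above 0 (median 0.29 on the log2 scale). In either direction 0 had an unadjusted p under 0.05 in edgeR, against 9.35% of all genes tested. RPS6KB1, the S6 kinase that acts on RPS6 and was chosen after its values were seen, stood at 81.6 and 83.3 CPM in FF1 and FF2, against 72.5, 60.2 and 69.9 CPM in RF1, RF2 and RF3 (0.29 ± 0.24, SE; edgeR adjusted p = 0.720). RPS6KA5 lay at 0.55 ± 0.34 and RPS6KA1 at -0.59 ± 0.37 (SE; -0.12 without FF2 and -1.28 without FF1), both kinases of the RSK and MSK families. Of 18 tested genes of RNA polymerases I and III and MYC 7 lay above 0 (median -0.10), with POLR2H, a subunit shared by the RNA polymerases, at -0.89 ± 0.33 and the transcription factor subunit GTF3C6 at -0.53 ± 0.30 (SE). POLR2H was the 1 of these with an unadjusted p under 0.05 in edgeR, at -0.53 without FF2 and -1.41 without FF1.

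Of 35 mitochondrial ribosomal protein genes, given for comparison, 14 lay above 0 with a median of -0.064. The groups did not overlap in 3 with FF below and 1 with FF above, against 13.9% and 13.1% of all genes tested. DESeq2 called 1 of the 35, against 1.83% of all genes with an adjusted p. The gene was MRPL38, a protein of the large mitochondrial subunit that is named because of this call. It stood at 119 and 74.2 CPM in FF1 and FF2, against 372, 297 and 233 CPM in RF1, RF2 and RF3. Both FF hens lay far below every RF hen, with a log2 fold change of -1.64 ± 0.36 (SE). The adjusted p was 0.00202 in DESeq2, whereas edgeR's quasi-likelihood test gave an adjusted p of 0.255 and called 0 of the 35. Over all alternatives run its log2 fold change lay between -2.02 and -1.33.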

How the data were processed

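Liver RNA of 2 FF and 3 RF hens was sequenced with strand kept, per the labels' protocols. The authors deposited estimated counts per gene symbol. The submitters' processing notes name FastQC, TopHat2 2.0.13, Cuffdiff 2.2.1, edgeR and the build galGal4, without roles. The sources used here do not say which annotation was used, how multiply mapped reads were treated or whether counting used strand. Values of close paralogues and overlapping genes are therefore uncertain. In the RefSeq table (GRCg7b) 8 members overlap a gene that is no snoRNA, none of them a tested gene.

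Estimated counts were rounded (51 of 6286 rows were not whole, 0 of them members). Genes were kept by filterByExpr with a minimum count of 10 (4309 genes, all 52 members), scaled by TMM, and tested in edgeR 4.0.16 (R 4.3.3) by glmQLFit and glmQLFTest, two-sided, with the group as the single term and Benjamini-Hochberg adjustment over all genes. The p-values weigh the difference between groups against the spread between these hens within groups, estimated with information shared over genes. Alternatives used DESeq2 1.42.0, limma 3.58.1 (voom), other scalings and filters, a replicate block, and each hen left out. The steps were tested on simulated data whose planted changes were larger than that of any member here, so that trial does not cover differences of the members' size. The members, lists and naming rule were chosen with earlier results of these data known. Genes named were members with an unadjusted p under 0.05, the 4 highest and 4 lowest fold changes, the 4 widest and 4 narrowest SDs, the 5 highest and 3 lowest mean CPM, stalk, paralogue-type and some fixed members, and the 2 lowest p of each list. Others, picked with their values in view, are so marked or appear only in lists or as a partner of a named gene. No correction for length was made, and no sequences were used. Some members are counted here but not reported by name.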

Additional observations from a re-analysis of the deposited data

How the results depend on the processing

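Ribosomal proteins called stayed at 0 under every alternative run, with 0 (replicate block, and without RF1) to 8 (without FF1) at an unadjusted p under 0.05 in edgeR, 4 in DESeq2 and 4 in limma-voom. As shares of all genes tested, 5.64% passed with the replicate block, 5.53% without RF1, 22.8% without FF1 (15.4% of members), 9.93% in DESeq2 and 9.14% in limma-voom (7.69% of members in both). The labels' replicate numbers pair no hens by design, and same-numbered deviations correlated at -0.143 and -0.355. With the replicate block the members' median log2 fold change was -0.25 and the genes called were 6. In that fit RF3 has no FF hen of its number and adds nothing to the contrast, so its lack of calls among members says little. Genes called over the whole table were 2, against 6 without a filter, 1 with 5 CPM in 2 libraries, 79 in DESeq2, and 0 to 8 when single hens were left out. Where 1 FF hen is left out, the lone FF hen is assumed to vary like the RF hens. Leaving out hens gave -0.46 to -0.20 for the small subunit median and -0.23 to 0.085 for the large, and 15 to 32 members with FF below every RF hen. Without FF2 these were 61.5% of members, against 26.5% of all genes. Without FF1 they were 48.1%, against 35.3%, and 16 members then lay above every RF hen, where 35.8% of all genes did. Without FF2, FF1 was lowest in 32 members, in this and in other hen-left-out settings no fewer than 21. Scaling by library totals alone moved the median of all genes to 0.11, with the members' median at -0.057, 8 members with FF below every RF hen and 10 lowest in FF1. Relative to all genes, the members' median was -0.17 there and -0.16 with TMM. These added counts were chosen after seeing the data. Signs turned for RPL8 (0.039 with upper quartile scaling, 0.093 with library totals, 0.0087 with the 5 CPM filter), RPL4 (0.012 with library totals) and RPL17L (-0.19 with the replicate block). Leaving out single hens turned RPL4 (-0.32 to 0.12), RPL7A (-0.27 to 0.019), RPL8 (-0.19 to 0.16), RPL11 (-1.25 to 0.25), RPL17L (-0.45 to 0.39), RPL22L1 (-0.38 to 1.03), RPL27A (-0.091 to 0.93), RPL29 (-0.73 to 1.27), RPS19BP1 (-0.38 to 0.20) and RPS3A (-0.48 to 0.77). Over all alternatives run, values kept their sign but moved by over 1.5 times for RPL7 (-0.28 to -0.15), RPL19 (-0.41 to -0.19), RPL26L1 (0.044 to 0.46), RPL7L1 (0.12 to 0.55), RPS27L (-0.53 to -0.20) and RPS6KA5 (0.36 to 0.73), among others. The cause was not tested. With 2 and 3 hens, small differences are beyond the reach of these tests.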
